A study of Mus musculus with 2 samples.

Results

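The ligands and receptors that maintain and recruit macrophages were followed across the cell types of the naive dorsal root ganglion (DRG). They are the 6 ligands Csf1, Il34, Cx3cl1, Ccl2, Cxcl12 and Ccl11 and the 4 receptors Csf1r, Cx3cr1, Ccr2 and Cxcr4, chosen by symbol, and all 10 were found among the 32285 genes counted. Both samples were L4 and L5 DRG of naive female C57BL/6 mice, 3 months old, and carried no transgene, deletion, injury or drug. The ganglia were dissociated with papain and then collagenase at 37 °C, live single cells were sorted, and 3′ single-cell libraries were sequenced on the 10x Genomics platform. The labels number the samples replicates 1 and 2, the study calls them biological replicates, and the animals in each were not given, so p-values measure the spread between these 2 samples. The series has 1 condition, so each comparison is between cell types, and the question was which cells of an uninjured ganglion carry the receptors and which carry each of their ligands.

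Csf1r is the tyrosine kinase receptor on which most tissue macrophages depend for survival, and Csf1 and Il34 are its alternative ligands. Cx3cr1 is the receptor of fractalkine, the product of Cx3cl1, which is made as a membrane-bound adhesion molecule and can be shed. Ccr2 draws monocytes out of the bone marrow and into tissue along gradients of Ccl2 and the related chemokines Ccl7 and Ccl12. Cxcr4 binds Cxcl12, a retention and homing chemokine of stromal and endothelial cells, while Ackr3 binds the same ligand and removes it. Ccl11, or eotaxin, acts mainly through Ccr3 on eosinophils.

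Promoter sequences of RefSeq (GRCm38.p6, 250 bases before to 50 after the transcription start) were matched for 6 of the 10 genes. Those of both macrophage receptors on chromosome 9 and of the Cxcl12 and Cxcr4 pair are shown, the former since both genes had most of their UMIs in macrophages, the latter as a receptor with its ligand. They read 5′ to 3′ in the direction of transcription, with each CG in capitals.
Cx3cr1, chr9:120068247-120068546, minus strand: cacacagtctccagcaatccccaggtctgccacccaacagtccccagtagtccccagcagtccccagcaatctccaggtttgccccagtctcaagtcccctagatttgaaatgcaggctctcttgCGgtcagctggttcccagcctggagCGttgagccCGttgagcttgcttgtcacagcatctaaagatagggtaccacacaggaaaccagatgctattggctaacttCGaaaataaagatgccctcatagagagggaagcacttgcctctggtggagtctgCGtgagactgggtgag
Ccr2, chr9:124101933-124102232, plus strand: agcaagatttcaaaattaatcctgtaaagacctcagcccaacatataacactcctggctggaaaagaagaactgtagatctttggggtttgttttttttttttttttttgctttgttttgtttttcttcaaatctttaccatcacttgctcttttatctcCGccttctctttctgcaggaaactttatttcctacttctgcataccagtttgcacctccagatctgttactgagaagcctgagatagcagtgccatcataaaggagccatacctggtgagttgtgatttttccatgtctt
Cxcl12, chr6:117168285-117168584, plus strand: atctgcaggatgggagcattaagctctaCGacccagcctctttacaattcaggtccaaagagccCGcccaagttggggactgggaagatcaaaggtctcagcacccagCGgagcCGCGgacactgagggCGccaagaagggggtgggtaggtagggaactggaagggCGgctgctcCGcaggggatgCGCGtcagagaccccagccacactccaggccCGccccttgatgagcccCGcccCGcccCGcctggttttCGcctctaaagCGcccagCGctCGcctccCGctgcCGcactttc
Cxcr4, chr1:128592250-128592549, minus strand: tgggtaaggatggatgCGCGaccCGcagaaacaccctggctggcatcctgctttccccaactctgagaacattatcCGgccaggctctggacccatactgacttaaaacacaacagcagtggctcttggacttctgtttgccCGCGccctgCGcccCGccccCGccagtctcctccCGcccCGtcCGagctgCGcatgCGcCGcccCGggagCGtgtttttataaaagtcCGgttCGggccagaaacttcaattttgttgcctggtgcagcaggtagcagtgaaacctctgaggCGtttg
The Ccr2 promoter held 1 CG and that of Cx3cr1 held 5, against a median of 7 over 32851 promoters of this length. Promoters of Cxcl12 and Cxcr4 held 20 each, a number reached by 26.5% of all promoters, and those of Csf1 and Cx3cl1 held 16 and 19. The letters TATAAA, searched on both strands, occurred in 13.6% of all promoters and were found 30 bases before the start of Cxcr4 and 6 bases before that of Cx3cl1, in neither of the promoters on chromosome 9 and in neither that of Csf1 nor that of Cxcl12. These counts describe the letters only, and no measurement of promoter activity was made.

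Positions are those of GRCm38 with GENCODE M21. Csf1 was at chr3:107741048-107760469, Il34 at chr8:110741829-110805924, Csf1r at chr18:61100598-61132149, Cx3cl1 at chr8:94772009-94782427, Cxcl12 at chr6:117168535-117181367 and Cxcr4 at chr1:128588199-128592293. Ccl2 (chr11:82035571-82037453) and Ccl11 (chr11:82057823-82062955) lie with Ccl7, Ccl12 and Ccl8 within 81229 bases of chromosome 11. Ccr2 (chr9:124101950-124113557) lies 4032.1 kb from Cx3cr1 (chr9:119901616-120069879). The annotated span of Cx3cr1 is 168264 bases and overlaps 9 other genes, Gorasp1, Csrnp1 and Xirp1 on the same strand, and which annotation and read regions the counting used was not given in the sources used here. Gm17268 overlaps Ccl2, and the antisense genes Gm15894 and Gm15895 overlap Il34, each on the opposite strand.

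A total of 16501 cells were retained, 8282 and 8219 in replicates 1 and 2, from files of 119101743 and 128668771 UMIs, where a UMI (unique molecular identifier) stands for 1 captured transcript. Clusters were named by the marker pairs of the study, which gave 6416 satellite glial cells (SGCs), 1396 non-myelinating and 3183 myelinating Schwann cells, 497 neurons, 1131 fibroblasts, 681 mural cells, 357 macrophages and 389 endothelial cells, while 2451 cells stayed unnamed. Of the 16 pair markers, 15 were highest in their own type. The exception was L1cam, whose level in non-myelinating Schwann cells was 0.97 of that in the next type, so that name rests on Scn7a and further markers. In macrophages, C1qa stood 712-fold and Aif1 325-fold above the next type. The pairs also named the clusters, so these levels describe the named types and are no independent check of the names. Neurons fell into a shallow cluster with a median of 831.5 UMIs per cell and a deep one with a median of 92320, so the summed neuron profile is mostly that of 109 deep cells. The samples shared 134 barcode sequences among called cells. Levels below are CPM, UMIs of a gene scaled to a fixed total per type and sample (counts per 1000000) after TMM scaling, and the SD given with a mean rests on 2 samples. Each type was compared with the equally weighted mean of the other 7 by edgeR's quasi-likelihood test, and a gene is called at a Benjamini-Hochberg adjusted p under 0.05 over 17770 genes.

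By level, all 4 receptors were highest in macrophages, and each ligand but Ccl2 in a vascular or connective tissue type. Macrophages were called higher in 5 of the 10 genes, all 4 receptors and Ccl2, and lower in 3, against 23.0% of all genes tested higher and 26.5% lower. Fibroblasts were called higher in all 6 ligands and in no receptor, against 26.2% of all genes, and lower in 2, against 21%. Mural cells were called higher in Csf1, Il34, Cxcl12 and Ccl11 (22.2% of all genes) and lower in 2 (19.7%). Endothelial cells were called higher in Csf1, Cx3cl1 and Cxcl12 (26.1%) and lower in Il34 and Ccl2 (25.6%).

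Glia and neurons carried less. SGCs were called higher in Csf1 and Cxcr4, against 33.8% of all genes, and lower in 5, against 23.1%. Non-myelinating Schwann cells were called higher in Csf1 and Il34 (20.4% of all genes) and lower in 5 (16.9%), and myelinating Schwann cells higher in Il34 alone (27.2%) and lower in 6 (24.0%). Neurons were called higher in none of the 10, where 37.1% of all genes were, and lower in 9, where 31.1% of all genes were. With the UMI cutoff taken over all cells, which removes deep neurons, the lower calls of Csf1, Cx3cl1, Cx3cr1, Ccl2, Cxcl12, Ccl11 and Csf1r were lost. Their adjusted p values were then 0.0889 to 0.955, and all of these differences but that of Cx3cl1 stayed negative. The median log2 difference of the 10 genes was 1.83 in macrophages and 1.15 in fibroblasts and -2.42 in neurons. Over all genes the medians were -0.24, -0.02 and 0.01 in the same types, so the macrophage profiles as a whole lay 0.24 under the mean of the other types on this scaling. Of 80 pairs of a gene and a type, 23 were called higher, 34 lower and 23 in neither direction.

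**Figure D1:**
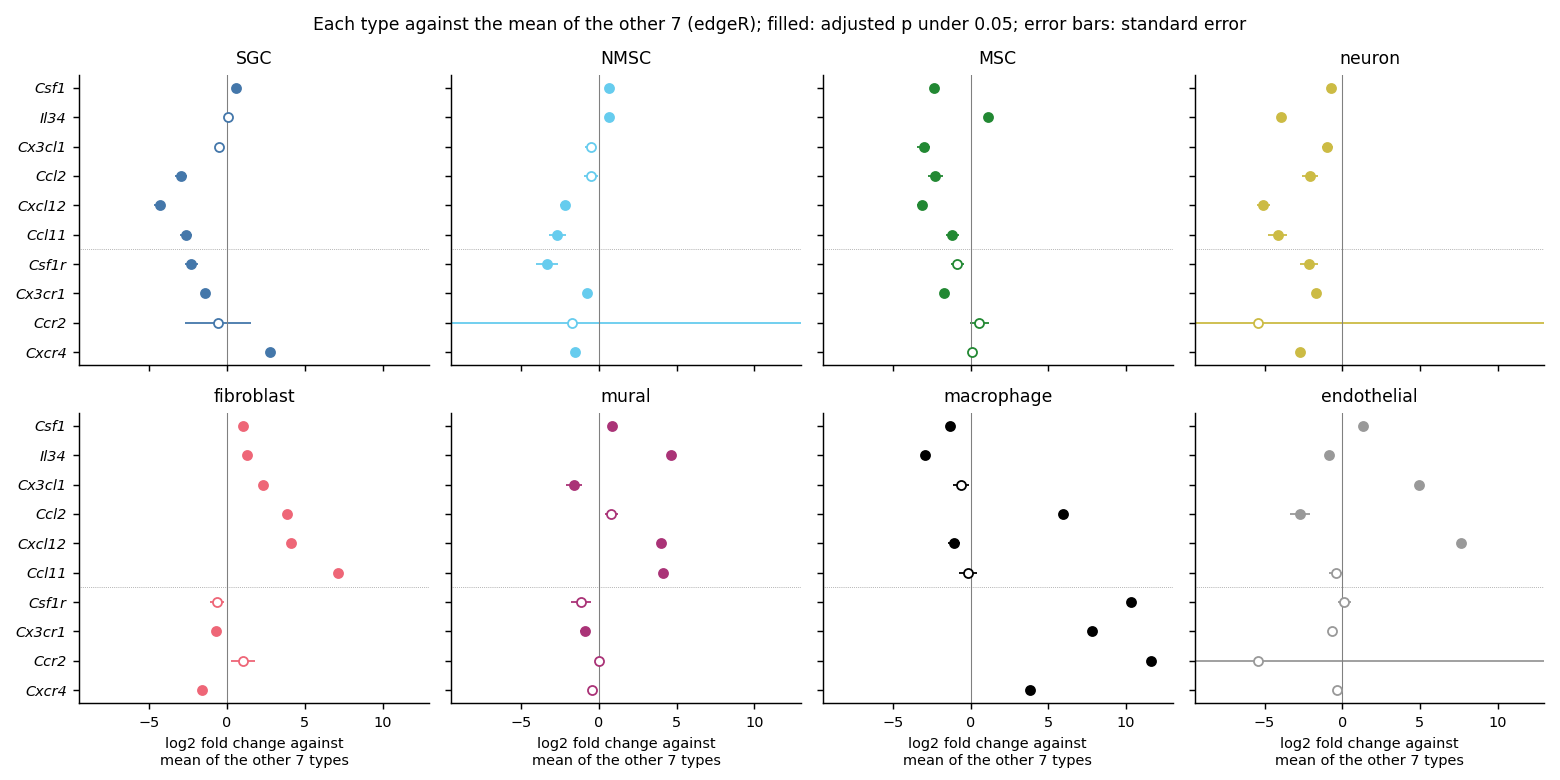
Log2 difference of each gene in each of the 8 cell types against the mean of the other 7 types (x axis, edgeR), with ligands above and receptors below the dotted line, filled points for an adjusted p under 0.05 and bars for the standard error. All 4 receptors are filled to the right in macrophages and all 6 ligands in fibroblasts; bars of Ccr2 run past the axis in non-myelinating Schwann cells, neurons and endothelial cells, which held 1 UMI of it in all.

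Among the named types, Csf1r was measured almost only in macrophages. It stood at 793 and 832 CPM there in replicates 1 and 2 (mean 813 ± 27.6, SD, n = 2) and between 0.184 and 2.94 CPM in every profile of the other 7 types. Macrophages held 97.7% and 96.5% of its UMIs. Shares of UMIs held, here and below, are of the named types. The log2 difference to the other 7 types was 10.30 ± 0.108 (SE, adjusted p = 3.02e-20). By sample, the macrophage level was 2143 and 2171 times that of SGCs, 858 and 881 times that of myelinating Schwann cells and 629 and 927 times that of fibroblasts. The lowest ratio was 283, over endothelial cells in replicate 2.

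The few Csf1r UMIs in the other named types were set against free RNA, the RNA of burst cells that enters every droplet. For each profile, its share was estimated as the lowest ratio of profile level to empty-droplet level among the pair markers of the other types. By this estimate free RNA made up 1.07% to 3.87% of the UMIs of a profile. Measured Csf1r was 0.296 to 1.96 times what this amount would carry in the lower sample of each of the other 7 types and up to 8.25 times, in endothelial cells of replicate 2, in the higher one, with 3.32 and 1.96 times in fibroblasts. In macrophages it was 2389 and 1329 times. The highest level outside macrophages among the named types, 2.94 CPM in endothelial cells of replicate 2, came from 13 UMIs in 2 of 203 cells. No neighbouring types among these 7 in the order of Csf1r levels were called different in the pairwise test. Types further apart were, such as SGCs below endothelial cells (-2.14 ± 0.543, adjusted p = 0.00261) and below fibroblasts (-1.45 ± 0.493, adjusted p = 0.0196). The call against endothelial cells rests on replicate 2. In replicate 1 endothelial cells had 1 UMI (0.262 CPM) and lay under SGCs, at 0.37 CPM. Macrophages differed from endothelial cells, the next in order, by 8.89 ± 0.215 (log2, SE, adjusted p = 1.3e-14). Over all genes and pairs of types, 51.6% of such pairwise tests were called.

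Csf1, the first ligand of Csf1r, was spread over 5 types. Endothelial cells had 38.3 and 31.9 CPM, fibroblasts 29.0 and 29.5 and mural cells 24.3 and 27.5. Non-myelinating Schwann cells had 20.8 and 26.5 CPM and SGCs 21.7 and 22.9. In that order no type was called different from the next, with adjusted p values of 0.147, 0.409, 0.6 and 0.639. Over the whole span the levels did fall, since SGCs were called lower than endothelial cells (-0.65 ± 0.131, adjusted p = 0.000357) and fibroblasts (-0.40 ± 0.122, adjusted p = 0.0112), and non-myelinating Schwann cells and mural cells lower than endothelial cells (adjusted p = 0.00545 and 0.0379). Below them a step of 1.15 ± 0.151 (log2, SE, adjusted p = 3.32e-06) led from SGCs to neurons, at 11.2 and 8.78 CPM. Macrophages themselves had 8.19 and 5.95 CPM and myelinating Schwann cells 3.69 and 3.99.

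All 5 of the upper types were called higher than the mean of the other types, from 0.57 in SGCs to 1.31 in endothelial cells (log2), and macrophages, myelinating Schwann cells and neurons were called lower. The call of non-myelinating Schwann cells (0.68) was lost when the same number of cells was drawn from each type (0.38, adjusted p = 0.284). By total UMIs the order was another. SGCs held 61.4% and 59.4% of all Csf1 UMIs of the named types and fibroblasts 11.3% and 14.5%, while endothelial cells, first by level, held 9.0% and 7.79%. SGCs also held 59.7% and 57.6% of the UMIs of all genes in these types, so their part of Csf1 was close to their part of the sequenced RNA. The number of cells of each type depends on dissociation and on the live-cell sort as well as on the ganglion.

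Within types, Csf1 was not even. In the smaller endothelial cluster, of 48 cells, it reached 109 and 107 CPM (without TMM scaling, as are all levels of clusters), against 33.3 and 27.0 in the larger one. The smaller cluster was led by Ctla2a, Ccl21a and Emcn. Further down its leading genes were Selp, Plvap and Vwf, genes of venous and fenestrated vessels, and Mmrn1. Ccl21a and Mmrn1 were listed as lymphatic markers, and the kind of vessel was not tested. Across the 4 SGC clusters it ran from 12.8 and 12.9 CPM in cluster 0 to 25.4 and 24.9 in cluster 7. Clustering did not use any of the 10 genes, and levels by cluster are a description with no test.

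Il34, the second ligand of Csf1r, was mainly a gene of mural cells, the pericytes and smooth muscle cells of the vessel wall. It stood at 573 and 548 CPM there (mean 561 ± 17.4, SD, n = 2), 7.61 times the level of fibroblasts, the next type. The difference to the mean of the other types was 4.61 ± 0.0893 (log2, SE, adjusted p = 7.06e-17). Fibroblasts had 67.6 and 79.7 CPM and myelinating Schwann cells 64.8 and 72.3, and these 2 types overlapped (adjusted p = 0.529). Non-myelinating Schwann cells followed with 46.0 and 53.6 CPM, SGCs with 32.9 and 37.0 and endothelial cells with 19.4 and 21, each below the one before it at adjusted p values of 0.0203, 0.00963 and 0.000731. The call of non-myelinating Schwann cells as higher (0.62 ± 0.13) was lost with equal numbers of cells (0.54, adjusted p = 0.0564) and with the UMI cutoff over all cells (0.46, adjusted p = 0.0609), and turned to -0.083 against all other cells in 1 profile.

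Neurons and macrophages carried the least Il34. Neurons had 2.08 and 4.3 CPM, from 13 and 25 UMIs, and macrophages 3.37 and 8.65 CPM, from 7 and 16 UMIs. So the macrophages that carry the receptor were called lower in both of its ligands, with log2 differences of -1.31 ± 0.227 for Csf1 and -2.90 ± 0.268 for Il34 (SE). Myelinating Schwann cells were among the higher types for Il34 (1.15 ± 0.113) and the lowest type for Csf1 (-2.33 ± 0.158), and endothelial cells the reverse, higher in Csf1 and lower in Il34 (-0.86 ± 0.165).

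Of the UMIs of Il34, mural cells held 40.4% and 32.7% and SGCs 32.1% and 32.8%, followed by myelinating Schwann cells with 11.9% and 13%. A UMI of Il34 was found in 91.2% and 90.9% of mural cells. With each cell thinned to 1000 UMIs, to compare cells of unequal depth, the shares were 45.3% (exact 95% interval 40.2 to 50.5) and 40.9% (35.4 to 46.6) in mural cells. In fibroblasts they were 5.97% and 8.18%, and in macrophages 0% (up to 1.87) and 0.617% (up to 3.39), where 3.59% and 6.79% had a UMI without thinning. Intervals cover counting error only. Among fibroblasts, Il34 was at 105 and 119 CPM in cluster 8, led by Apod, Dcn and Tgfbi, and at 30.2 and 21.3 in cluster 11, led by Ecrg4, Mgp and Sfrp4.

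Further partners of this pair followed other cells. Ptprz1, a receptor-type phosphatase that binds Il34, was a gene of SGCs (1243 CPM as the mean of both samples) and non-myelinating Schwann cells (552 CPM), and it had helped to name the SGCs. Sdc1, a proteoglycan that binds Il34, was highest in mural cells, at 108 and 115 CPM, with 28.4 and 26.3 in fibroblasts. Tyrobp, an adaptor of macrophage receptors, was at 1708 and 1686 CPM in macrophages and Trem2 at 295 and 267. Both were called higher there and in no other type.

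**Figure D2:**
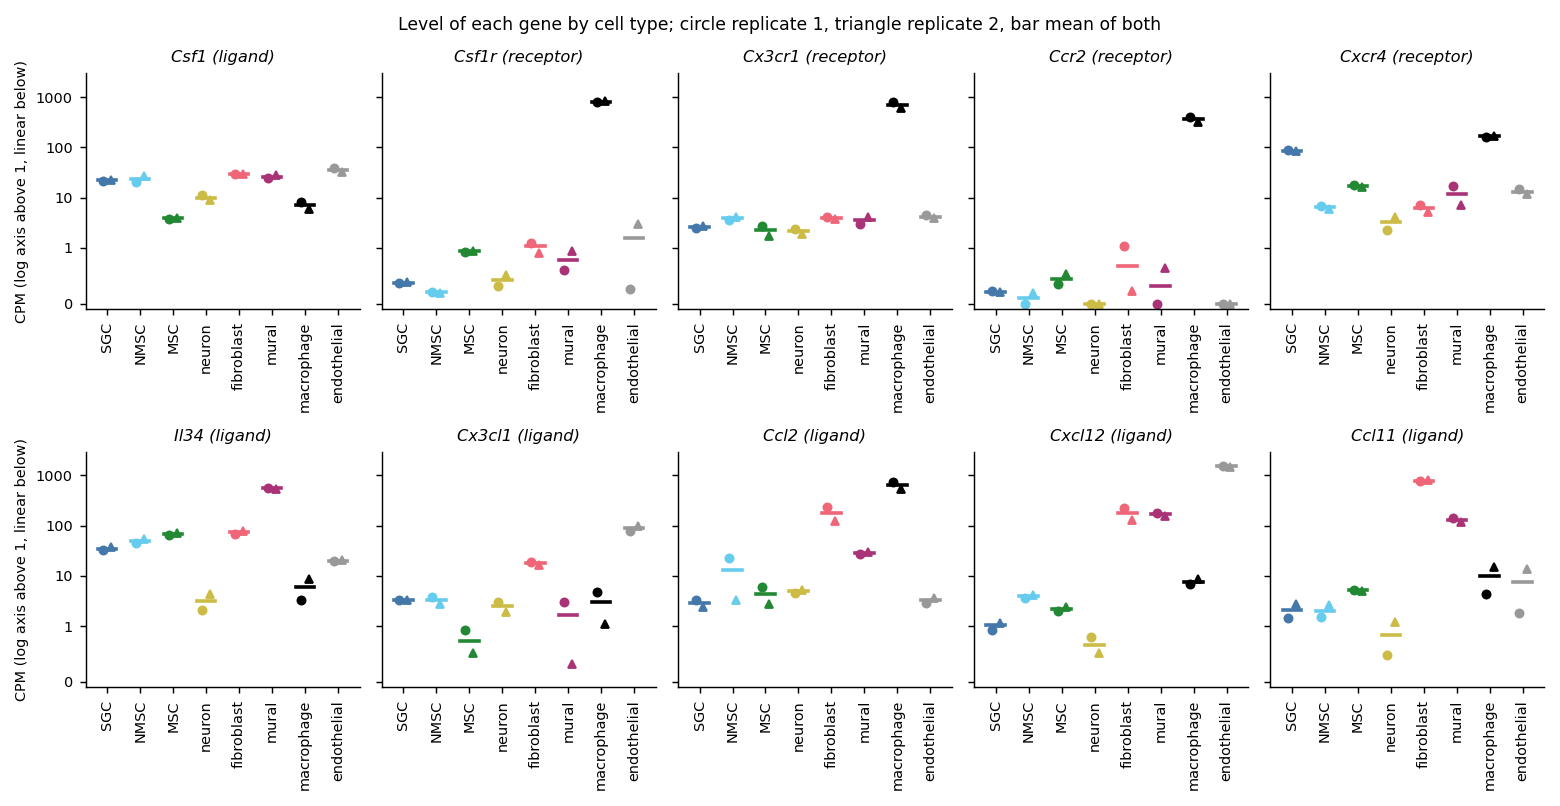
Level of each of the 10 genes (CPM after TMM scaling, logarithmic above 1 and linear below) in the 8 cell types, with a circle for replicate 1, a triangle for replicate 2 and a bar for their mean; NMSC and MSC are non-myelinating and myelinating Schwann cells. Csf1r, Cx3cr1 and Ccr2 stand at 323 to 832 CPM in macrophages and at or under 4.46 CPM elsewhere, whereas Csf1 spans 3.69 to 38.3 CPM over all types.

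Cx3cr1 showed the same restriction as Csf1r at a higher floor. Macrophages had 796 and 602 CPM (mean 699 ± 137, SD, n = 2) and held 88.1% and 82.2% of its UMIs, with a log2 difference of 7.81 ± 0.0899 (SE, adjusted p = 5.4e-20). The other types lay between 1.68 and 4.46 CPM, and no neighbours in their order were called different, though neurons were called lower than fibroblasts (-0.86 ± 0.351, adjusted p = 0.0407) and endothelial cells (-0.93 ± 0.395, adjusted p = 0.0477), and so were myelinating Schwann cells (adjusted p = 0.0335 and 0.0466). The macrophage level was 146 to 358 times that of any other type within a sample. In contrast to Csf1r, the UMIs of Cx3cr1 outside macrophages exceeded the free-RNA estimate, at 3.15 times that amount in myelinating Schwann cells and 9.61 to 17.4 times in the remaining 6 types, in the lower sample of each. Whether reads of the genes that its annotated span overlaps add to this floor was not tested.

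Cx3cl1, its ligand, came from endothelial cells and, at a lower level, fibroblasts. Endothelial cells had 79.8 and 98.6 CPM (mean 89.2 ± 13.3, SD, n = 2), a log2 difference of 4.93 ± 0.171 to the mean of the other types (SE, adjusted p = 1.11e-13). Fibroblasts had 19.1 and 16.8 CPM (2.28 ± 0.213, adjusted p = 1.08e-07). These 2 types differed by 2.32 ± 0.221 (adjusted p = 1.23e-07), and a step of 2.42 ± 0.237 (adjusted p = 1.3e-07) separated fibroblasts from SGCs. SGCs had 3.35 and 3.3 CPM, non-myelinating Schwann cells 3.87 and 2.76, macrophages 4.82 and 1.08 and myelinating Schwann cells 0.924 and 0.524. No neighbours among these types, neurons and mural cells were called different. Myelinating Schwann cells, at the bottom, were called lower than SGCs (by 2.20 ± 0.445 in log2, adjusted p = 0.000521), non-myelinating Schwann cells (adjusted p = 0.00613), neurons (0.0132) and macrophages (0.0312).

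Neurons had 3.05 and 1.89 CPM of Cx3cl1, from 19 and 11 UMIs, and were called lower (-0.97 ± 0.36, adjusted p = 0.025), which did not hold with equal numbers of cells (0.03) or with the UMI cutoff taken over all cells (0.14), which removes deep neurons. Mural cells, which adjoin the endothelium, were called lower (-1.60 ± 0.491) with 10 and 1 UMIs. Endothelial cells held 47.2% and 56.3% of the UMIs, SGCs 23.9% and 20.0% and fibroblasts 18.8% and 19.4%. Thinned to 1000 UMIs, 9.68% (5.84 to 14.9) and 8.37% (4.95 to 13.1) of endothelial cells and 2.13% and 1.7% of fibroblasts had a UMI of Cx3cl1. The larger endothelial cluster had 89.4 and 111 CPM and the smaller one 47.3 and 26.0.

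The proteases known to shed Cx3cl1 and Csf1 were not confined to these cells. Adam10 was highest in myelinating Schwann cells (433 and 411 CPM) and was at 273 and 269 CPM in endothelial cells, and it was called higher in both and in SGCs and non-myelinating Schwann cells. Adam17 was highest in macrophages, at 300 and 270 CPM. Of the 6 proteases listed, 5 were tested, and 3 were called higher and none lower in macrophages (23.0% and 26.5% of all genes). Non-myelinating Schwann cells had the same counts (20.4% and 16.9%). In SGCs (33.8% and 23.1%) and fibroblasts (26.2% and 21%) 3 were called higher and 2 lower, and in neurons 0 and 5 (37.1% and 31.1%).

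Ccr2, like Csf1r, had nearly all its UMIs in macrophages among the named types. They had 408 and 323 CPM (mean 366 ± 60.4, SD, n = 2), from 847 and 597 UMIs, and held 97.7% and 96.8% of its UMIs. Neurons and endothelial cells held 0 UMIs in both samples, and the other types between 0 and 10 in a sample. The macrophage level was at least 849-fold and 625-fold higher than in neurons and at least 518-fold and 476-fold higher than in endothelial cells, with 3 counts set as the floor per library where none was seen. It was 1875 and 1516 times that of SGCs, which had 10 UMIs in each sample, and 370 times that of fibroblasts in replicate 1, which had 7. Macrophages differed from the mean of the other types at an adjusted p of 7.78e-17, and since many profiles are at 0 the fitted size of that difference depends on the prior count of the fit. Measured Ccr2 in the other types was at most 1.08 times the free-RNA estimate in the lower sample and 5.17 times, in fibroblasts of replicate 1, in the higher one.

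Fewer macrophages had a UMI of Ccr2 than of Csf1r or Cx3cr1. It was found in 56.9% and 56.8% of them, at a median depth of 11240 and 11050 UMIs per cell, against 98.5% and 98.8% for Csf1r and 97.4% and 96.9% for Cx3cr1. SGCs, at 14970 and 16030 UMIs, had a UMI of Ccr2 in 0.273% and 0.32% of cells. Thinned to 1000 UMIs, the macrophage shares were 26.7% (20.6 to 33.5) and 17.9% (12.3 to 24.7) for Ccr2, 47.7% (40.5 to 55.0) and 53.1% (45.1 to 61.0) for Csf1r and 47.7% and 43.2% for Cx3cr1. A UMI of Ccr2 lay in 57.9% and 57.3% of the cells with Cx3cr1, so both receptors were often seen in the same cell, and these shares were close to that over all macrophages. Nearly all macrophages with Ccr2 also had Csf1r (99.1% and 97.8%) and Cx3cr1 (99.1% and 97.8%). Ccr2 and its ligand were not seen together more often in both samples, with Ccl2 in 51.4% and 38% of the cells with Ccr2 and 38.1% and 50% of those without.

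The 12 macrophage markers were all detected in both samples and summed to 22296 and 19771 CPM (sums of marker lists are without TMM scaling). The 8 monocyte markers, 6 of them detected in both samples, summed to 431 and 518 CPM, within the range of 47.8 to 595 in the other types, and the 8 dendritic cell markers, 7 of them detected, to 108 and 151, against 6.08 to 69.7. The 8 neutrophil markers summed to 73.2 and 56 CPM, against at most 7.05 in the other types, with 3 detected in both samples and Retnlg and Ly6g at 0. The leading genes of the cluster held those of antigen presentation, Cd74, H2-Eb1 and H2-Aa, beside Lyz2 and C1qa. The part of monocytes, dendritic cells or neutrophils in the Ccr2 level of this cluster was not tested.

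**Figure D3:**
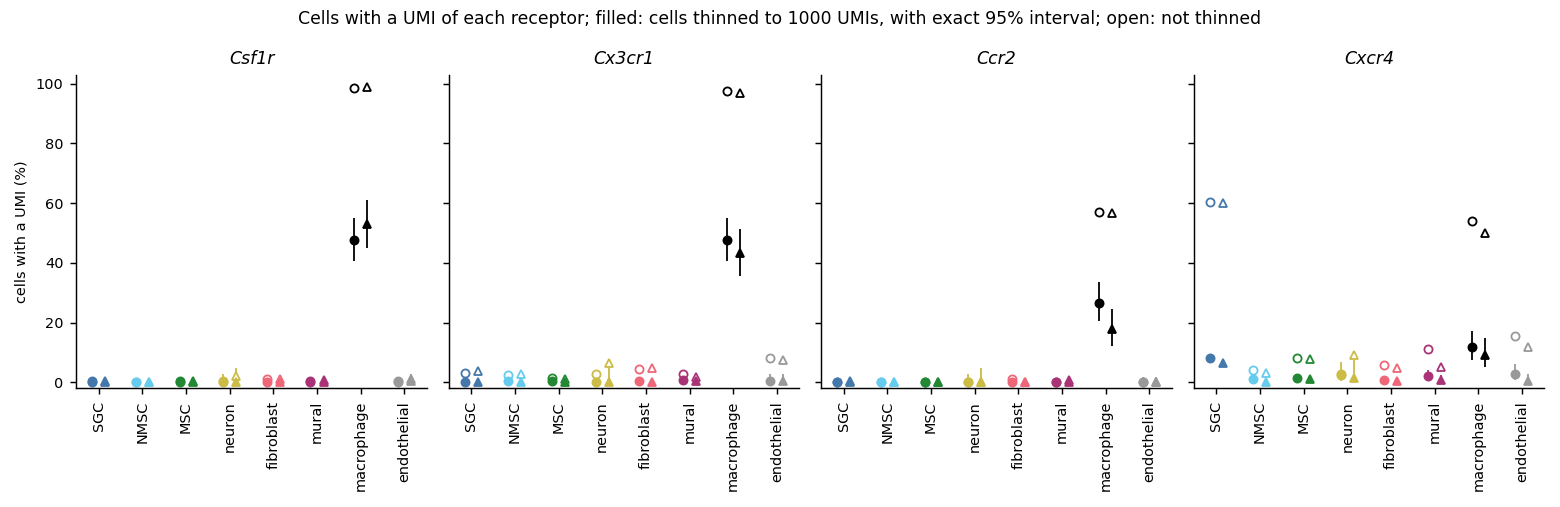
Share of cells with at least 1 UMI of each receptor (y axis, %) by cell type, with circles for replicate 1 and triangles for replicate 2, open symbols for all UMIs and filled symbols with exact 95% intervals for cells thinned to 1000 UMIs. Csf1r and Cx3cr1 reach 96.9% to 98.8% of macrophages unthinned and Ccr2 56.8% to 56.9%, while Cxcr4 is found in 59.9% to 60.5% of SGCs and 50% to 53.9% of macrophages.

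Ccl2, the main ligand of Ccr2, was highest in the macrophages themselves. They had 740 and 547 CPM (mean 643 ± 137, SD, n = 2; log2 difference 5.96 ± 0.233, SE, adjusted p = 6.31e-13). Fibroblasts had 235 and 122 CPM (3.83 ± 0.246, adjusted p = 7.94e-10), and macrophages exceeded them by 1.86 ± 0.323 (log2, adjusted p = 0.000115). Mural cells, at 26.8 and 29.7 CPM, lay between and were not called (0.80 ± 0.419, adjusted p = 0.145). With the replicate number as a block they were called higher (0.82, adjusted p = 0.0355), as they were without a filter on low counts (0.78, adjusted p = 0.00508) and at clustering resolution 1.2 (0.91, adjusted p = 0.0224). Endothelial cells, at 2.89 and 3.62 CPM, were called lower (-2.74 ± 0.647), as were SGCs (3.37 and 2.43 CPM), myelinating Schwann cells (6.12 and 2.73 CPM) and neurons (4.65 and 5.16 CPM).

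The 2 sources were about equal by UMIs, since fibroblasts were more numerous. Macrophages held 44.3% and 42.2% of Ccl2 and fibroblasts 42.9% and 45.4%, and every other type held at most 4.75%. Ccl2 was uneven among cells and samples. It was found in 45.6% and 43.2% of macrophages and, thinned, in 21.5% (16 to 28) and 21.6% (15.5 to 28.7), against 5.97% and 6.64% of fibroblasts. In non-myelinating Schwann cells, replicate 1 had 107 UMIs and replicate 2 had 18, so the levels of 23.0 and 3.32 CPM do not give a stable place in the order.

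Genes that respond to dissociation were high in both sources of Ccl2 and also in vascular and Schwann cells. Without TMM scaling, the 16 immediate early and stress genes listed, such as Fos, Jun and Hspa1a, summed to 18824 and 18673 CPM in macrophages, 11314 and 14065 in fibroblasts, 19956 and 18207 in mural cells and 17389 and 19988 in endothelial cells, against 4123 and 4937 in SGCs and 1883 and 1560 in neurons. Of the 16, 15 were called higher in macrophages (23.0% of all genes), 14 in mural cells (22.2%), 14 in endothelial cells (26.1%) and 10 in fibroblasts (26.2%). Their part in the Ccl2 level was not tested.

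The other ligands of Ccr2 came from the same 2 types, with 1 exception. Ccl7 was at 366 and 330 CPM in macrophages, 209 and 199 in fibroblasts and 19.2 and 32.3 in mural cells, all 3 called higher, and fibroblasts held 59.4% and 68.1% of its UMIs. Ccl12 was at 587 and 430 CPM in macrophages and at or under 1.2 CPM elsewhere, and macrophages held 97.8% and 94.3% of it. Ccl8, listed with them, was low, at 8.68 and 14.1 CPM in macrophages and 5.05 and 1.01 in fibroblasts. Ackr2, an atypical receptor that removes such chemokines, was detected with 12 UMIs in all, and Ackr1, which binds them without signalling, stood at 28.2 and 29.1 CPM in neurons and 17.7 and 16.6 in myelinating Schwann cells. In endothelial cells, where Ackr1 is known from venules, it was at 3.67 and 6.78 CPM, also called higher.

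Among fibroblasts, the ligands of Ccr2 lay mainly in cluster 8. Ccl2 was at 379 and 191 CPM there and at 88.7 and 19.1 in cluster 11, and Ccl7 at 347 and 308 against 68.5 and 36.9. The order was the same in both samples for both genes.

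Ccl11 was a gene of fibroblasts, and within them of cluster 8. Fibroblasts had 785 and 797 CPM (mean 791 ± 8.42, SD, n = 2; log2 difference 7.12 ± 0.17, SE, adjusted p = 1.21e-15) and held 89.1% and 91.5% of its UMIs. Cluster 8 had 1487 and 1272 CPM and cluster 11 had 44.7 and 78.0. Mural cells followed with 140 and 118 CPM (4.13 ± 0.234, adjusted p = 1.54e-10), 2.61 ± 0.252 below fibroblasts (adjusted p = 2.29e-07). All other types were at or under 15.1 CPM. Macrophages had 4.34 and 15.1 CPM and endothelial cells 1.84 and 13.6, both far apart between the samples, and myelinating Schwann cells 5.31 and 5.03. SGCs, with at most 2.72 CPM, non-myelinating Schwann cells, at 1.5 and 2.58, and neurons, at 0.481 and 1.21, had the least. Thinned, 37.3% (32.9 to 41.9) and 37.5% (33.8 to 41.4) of fibroblasts had a UMI of Ccl11. Its receptor Ccr3 was at 1 UMI in all.

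Cxcl12 was the ligand of the endothelium. Endothelial cells had 1541 and 1493 CPM (mean 1517 ± 33.8, SD, n = 2), 8.53 times the level of fibroblasts, with a log2 difference of 7.65 ± 0.115 to the mean of the other types (SE, adjusted p = 1.63e-18). They held 73.5% and 78.7% of its UMIs. Fibroblasts had 225 and 131 CPM (4.10 ± 0.139) and mural cells 180 and 158 (4.03 ± 0.151), and these 2 types overlapped and were not called different (adjusted p = 0.806). A step of 4.46 ± 0.298 (log2, adjusted p = 1.36e-09) led to macrophages, at 6.75 and 8.65 CPM. Macrophages were called lower (-1.07 ± 0.371, adjusted p = 0.0237), which turned to 0.31 with free RNA subtracted. Non-myelinating Schwann cells had 3.65 and 4.24 CPM and myelinating Schwann cells 1.96 and 2.41. SGCs, at 0.935 and 1.15 CPM, and neurons, at 0.801 and 0.516, were at 1.14 and 0.875 times the free-RNA estimate in the lower sample.

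Within the endothelium Cxcl12 differed between the clusters. The larger cluster, led by Flt1, Cldn5 and Ly6c1, had 1816 and 1711 CPM, and the smaller one 111 and 43.3, the reverse of Csf1. Thinned, 69.3% (62.2 to 75.9) and 62.6% (55.5 to 69.2) of endothelial cells had a UMI of Cxcl12, against 14.1% and 8.33% of fibroblasts. Among fibroblasts the order was the reverse of Ccl2 and Ccl11 in both samples, with 371 and 144 CPM in cluster 11 and 117 and 133 in cluster 8.

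The mural level of Cxcl12 rests largely on 52 cells. Mural cluster 21, whose leading genes hold the fibroblast markers Mfap5 and Col3a1 beside Rgs5, Acta2 and Tagln, had 1542 and 814 CPM of Cxcl12 and 598 and 585 of Ccl11. Cluster 10, with 629 cells, had 59.8 and 63.4 of Cxcl12 and 102 and 51.3 of Ccl11. Without cluster 21, an alternative chosen after seeing the data, the mural differences fell from 4.03 to 2.53 for Cxcl12 and from 4.13 to 3.36 for Ccl11 (log2), and both were still called (adjusted p = 4.28e-09 and 6.94e-08). Il34 did not depend on it, at 393 and 477 CPM in cluster 21 and 601 and 584 in cluster 10.

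**Figure D4:**
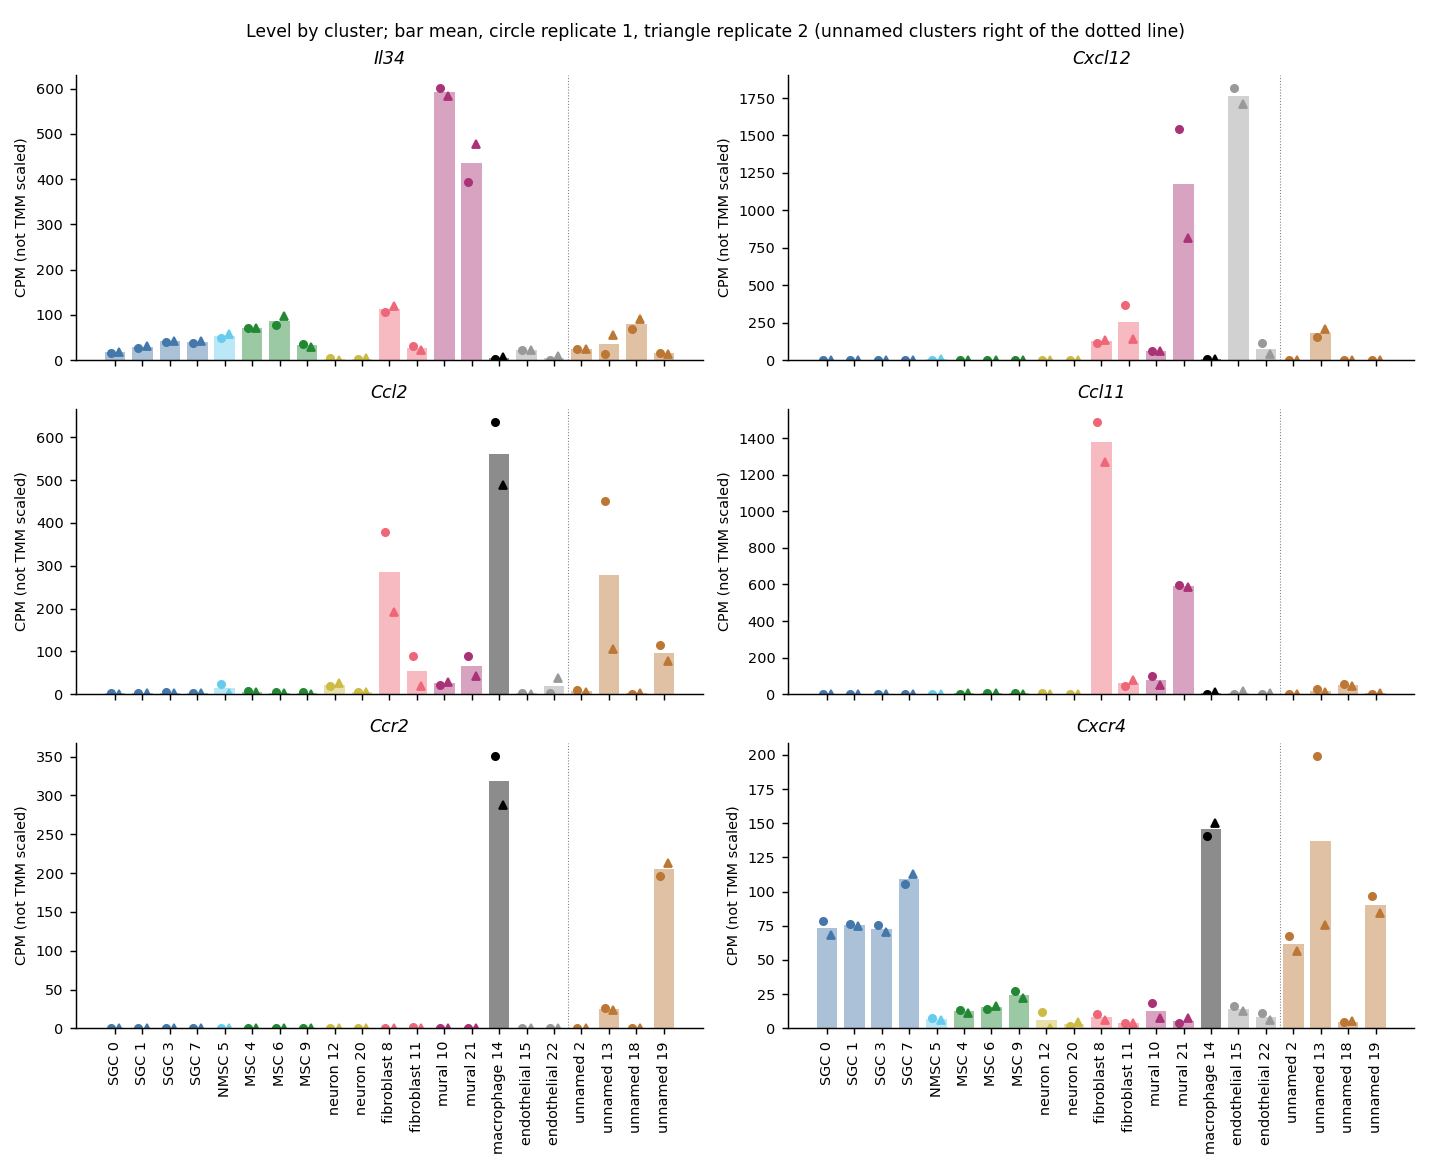
Level of 6 of the genes (y axis, CPM without TMM scaling) in each cluster, with bars for the mean of both samples, circles for replicate 1 and triangles for replicate 2, and unnamed clusters to the right of the dotted line. Ccl11 and Ccl2 are high in fibroblast cluster 8 and low in cluster 11, Cxcl12 is high in endothelial cluster 15 and mural cluster 21, and Cxcr4 is at 73.0 to 109 CPM in all 4 SGC clusters.

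Cxcr4, unlike the other receptors, was shared by macrophages and SGCs. Macrophages had 164 and 169 CPM (mean 166 ± 3.44, SD, n = 2; log2 difference 3.84 ± 0.136, SE, adjusted p = 1.5e-13) and SGCs 89.9 and 82.9 (mean 86.4 ± 4.94; 2.76 ± 0.105, adjusted p = 6.03e-13). Macrophages exceeded SGCs by 0.94 ± 0.145 (adjusted p = 2.73e-05), and SGCs exceeded myelinating Schwann cells, at 17.9 and 16.3 CPM, by 2.34 ± 0.159 (adjusted p = 1.77e-09). Endothelial cells, which carry the ligand, had 14.7 and 11.5 CPM and mural cells 17.1 and 6.96, and neither was called. Non-myelinating Schwann cells, at 6.87 and 5.9 CPM, and fibroblasts, at 7.1 and 5.27, were called lower. Neurons had the least, 2.24 and 4.13 CPM, and were called lower (-2.69 ± 0.255). Against all other cells in 1 profile, which is mostly SGC, the macrophage difference was 1.88 and still called.

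By UMIs of the named types, Cxcr4 lay mainly in SGCs. SGCs held 85.5% and 85.8% of it and macrophages 7.0% and 6.9%. Of the UMIs of all genes in these types, SGCs held 59.7% and 57.6% and macrophages 2.81% and 2.31%. Cxcr4 was found in 60.5% and 59.9% of SGCs, 53.9% and 50% of macrophages and 38.6% and 31.1% of the unnamed cells. Thinned, the shares were 8.32% (7.39 to 9.31) and 6.6% (5.76 to 7.53) of SGCs, 11.8% (7.63 to 17.2) and 9.26% (5.28 to 14.8) of macrophages, and 1.06% and 0.276% of non-myelinating Schwann cells. All 4 SGC clusters carried it, from 73.0 to 109 CPM as means, the highest in cluster 7. An unnamed cluster of 962 and 869 cells led by Pou3f1, Pde10a and Ednrb, with Bcan and Ptprz1 among its leading genes but too little of the SGC pair to be named, had 67.2 and 56.6 CPM.

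SGC transcripts in the macrophage profile were higher than in other cells outside the glia. The 11 SGC markers, 10 of them detected in both samples and Kcnj3 at 0, summed to 30225 and 29244 CPM in macrophages, with Apoe, which macrophages also express, among them. The sums were 81360 and 82088 in SGCs and 2704 to 7578 in fibroblasts, mural cells, endothelial cells and neurons. Fabp7 was at 872 and 1433 CPM in macrophages, against 286 to 668 in fibroblasts, mural cells, endothelial cells and neurons and 11983 and 12322 in SGCs. Kcnj10 was at 41.4 and 49.2 CPM against 7.51 to 23.9 in those types and 259 and 250 in SGCs. The macrophage difference of Cxcr4 was 3.84 in the main comparison (log2). Over the tested alternatives it ran from 1.88 to 4.31, the latter without the cells called doublets. Before filtering, 16.6% of the cells of the macrophage cluster were called doublets, against 7.03% and 6.99% set for all cells of replicates 1 and 2. Cells so called were not left out of the main comparison. The part of SGC RNA in the macrophage level of Cxcr4 was not tested.

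Ackr3, the other receptor of Cxcl12, was at 132 and 174 CPM in mural cells, 119 and 108 in fibroblasts and 48.1 and 51.3 in SGCs, all called higher, and at 4.82 and 3.79 in macrophages, called lower. So SGCs carried both receptors of Cxcl12, macrophages Cxcr4 and mural cells and fibroblasts Ackr3 together with the ligand. Dpp4, a peptidase that cuts Cxcl12, was at 12.1 and 9.5 CPM in endothelial cells, 9.46 and 8.86 in fibroblasts and 8.19 and 6.49 in macrophages, and at or under 0.316 in the other types.

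**Figure D5:**
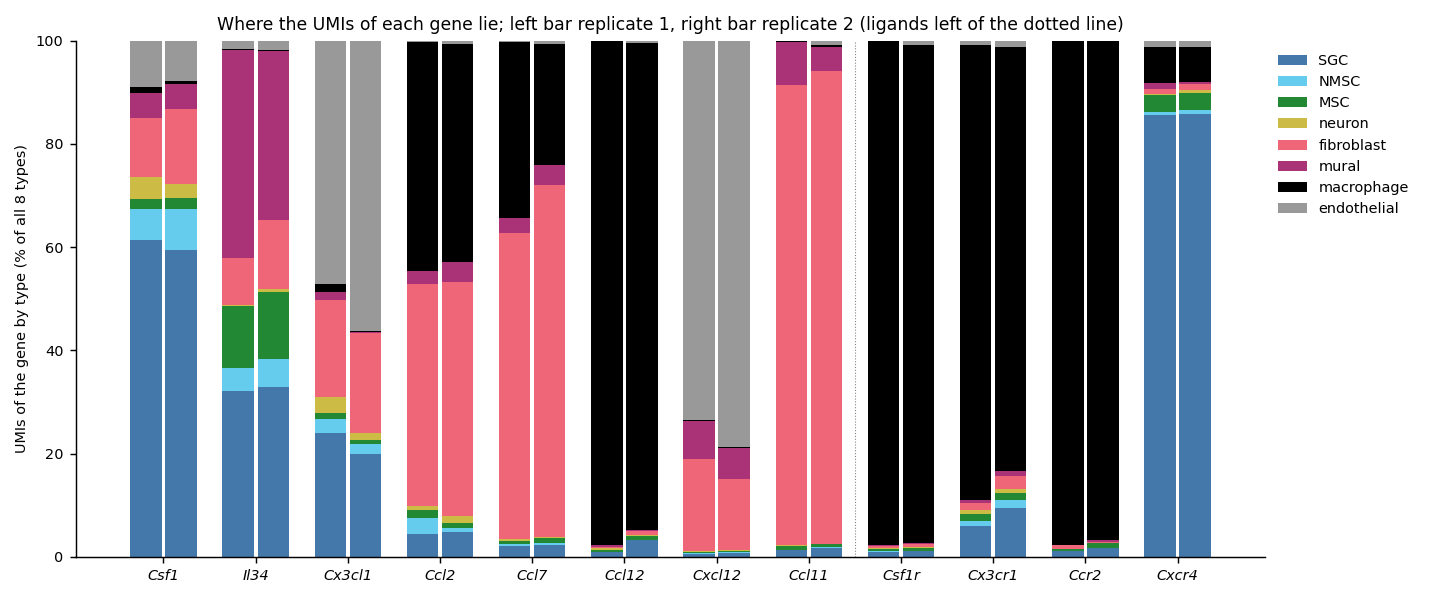
Distribution of the UMIs of each gene over the 8 named cell types (y axis, % of the UMIs of that gene), with 1 bar per sample, replicate 1 to the left, and ligands to the left of the dotted line. SGCs hold 59.4% to 61.4% of Csf1 and 85.5% to 85.8% of Cxcr4, macrophages and fibroblasts together hold most of Ccl2 and Ccl7, and macrophages hold 82.2% to 97.7% of Csf1r, Cx3cr1 and Ccr2.

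Set side by side, each receptor system had its own ligand-bearing types. For Csf1r of macrophages, Csf1 was called higher in endothelial cells, fibroblasts, mural cells, SGCs and non-myelinating Schwann cells, and Il34 in mural cells, fibroblasts and both Schwann cell types, where both calls in non-myelinating Schwann cells were lost with equal numbers of cells. For Cx3cr1 of macrophages, Cx3cl1 was called higher in endothelial cells and fibroblasts. For Ccr2 of macrophages, Ccl2 was called higher in macrophages and fibroblasts. For Cxcr4 of macrophages and SGCs, Cxcl12 was called higher in endothelial cells, fibroblasts and mural cells. Fibroblasts were thus the 1 type called higher for every ligand. Among the 10 genes, macrophages were the 1 type with both a receptor and its ligand called higher, Ccr2 and Ccl2, while mural cells and fibroblasts were called higher in Cxcl12 and in Ackr3, which is not one of the 10. Of 70 pairs of neighbouring types in the 10 orders, 24 were called different and 46 were not.

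Other genes of these systems, listed by family, were led by macrophages among the chemokines but not among the atypical chemokine receptors. Of 16 further chemokines tested, 12 were called higher in macrophages and none lower (23.0% and 26.5% of all genes), with Ccl4 at 3765 and 3994 CPM, Ccl3 at 2671 and 2189, Cxcl2 at 1855 and 1865 and Pf4 at 1331 and 1216, against 6 higher and 2 lower in fibroblasts (26.2% and 21%) and 1 and 8 in neurons (37.1% and 31.1%). Of 4 further signalling chemokine receptors tested, 2 were called higher and none lower in macrophages (23.0% and 26.5% of all genes). Ccr1 was at 58.8 and 43.3 CPM in macrophages and was called higher there. Cxcr3 and Cxcr5 were too low to be tested, with 24 and 40 UMIs. Of 4 atypical receptors tested, 1 was called higher and 2 lower in macrophages (23.0% and 26.5%). In mural cells 2 were called higher and none lower (22.2% and 19.7%), and in endothelial cells 2 and 1 (26.1% and 25.6%). Ccrl2, an atypical receptor, was at 635 and 705 CPM in macrophages and 55.6 and 78.5 in mural cells.

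Of 9 further growth factor genes tested, 7 were called higher in macrophages, Csf2ra among them at 149 and 161 CPM, and none lower, against 23.0% and 26.5% of all genes. The ligand and receptor Kitl and Kit were apart. Kitl, stem cell factor, was at 1153 and 1175 CPM in endothelial cells and 204 and 227 in mural cells, and Kit at 165 and 162 CPM in SGCs and 75.8 and 44.1 in neurons. Csf2rb was shared by endothelial cells (81.9 and 81.6 CPM) and macrophages (50.6 and 50.3 CPM). The growth factors Csf2 and Csf3 had 3 and 6 UMIs in all.

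For each member, the genes whose log2(CPM + 1) followed its own most closely over the 16 profiles were listed. The nearest to Csf1r was Slamf8 (Pearson r = 0.997), followed by Snx20 and C1qc, and to Cx3cr1 it was Nckap1l, followed by Klra2 and Ikzf1, all genes of blood-derived cells. Il34 was nearest to Myl9 (r = 0.97) and Cspg4 (0.94), a contractile protein and a pericyte proteoglycan. Ccl11 was nearest to Pax9 (0.98), Egfr (0.97) and Prelp (0.97), Cxcl12 to Arhgef5 (0.98), Spry1 (0.98) and Tpm4 (0.97) and Cx3cl1 to Slc26a10 (0.94). Ccl2 was nearest to Ccl7 (0.95), its neighbour on chromosome 11. Gm17268, which overlaps it on the opposite strand, was at 0.95. Cxcr4, spread over 2 types, was nearest to Slc15a2 (0.93), and Csf1 to Grb10 (0.94). The points share 2 dissociations and 8 cell types and are not independent.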

How the data were processed

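Single-cell UMI counts per gene and barcode were measured in 2 samples of naive DRG. Per the file headers and the labels, the authors aligned the reads to mm10 and counted UMIs with Cell Ranger 7.1.0. The deposited counts are raw, list all barcodes and were not normalized, and the annotation and the counting of intronic reads were not given in the sources used here. Cells were called from 1762921 and 1832899 barcodes by UMI total and by a test against empty droplets, kept over 300 genes, and clustered with Seurat 5.3.0 (SCTransform 0.4.2 in R 4.3.3, 3000 variable genes without the 10 genes and the other listed genes, 30 principal components, resolution 0.8). A cluster was named where both genes of a marker pair reached 0.3 of their highest cluster and at least 3 markers of the type stood among its 50 leading genes, a rule chosen after seeing the data. Cells over the median plus 5 median absolute deviations of UMIs within a cluster and sample were left out, as were a cluster of mitochondrial RNA and a cluster of doublets. Cell types are rebuilt names, since the authors' annotation of cells was not used here.

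UMIs were summed per type and sample into 16 profiles and tested with edgeR 4.0.16 (quasi-likelihood, TMM, 17770 genes that reached 10 counts in 2 or more profiles, Benjamini-Hochberg). DESeq2 1.42.0 and other settings served as alternatives. Calling of cells and tests were tested on simulated data. Each type has 1 profile per sample, and exact binomial intervals (Python 3.11.15, scipy 1.17.1) cover counting error only. The samples differed beyond sampling noise (a chi-square of 13.1 for each degree of freedom over 19196 genes). Named genes were the 10 members, all genes listed as ligands of Ccr2 and atypical receptors detected, Ptprz1, Sdc1, Tyrobp, Adam10, Adam17, Dpp4, up to 4 of the highest genes of each other list and the 3 genes most like each member. A gene that this rule names is not reported here. Further genes were chosen after their values were seen. A planned test of macrophages against other leukocytes was not run, since no further class could be named. Members and lists were chosen with earlier results of these data known.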

Additional observations from a re-analysis of the deposited data

Results flagged for a closer look

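Ccr2 was also found in cells that no comparison used. Unnamed cluster 19, with 59 and 81 cells in replicates 1 and 2, had 197 and 214 CPM of Ccr2 (mean 205), against 12.7 and 12.4 CPM in empty droplets. Its leading genes were those of antigen presentation such as Cd74 and H2-Aa together with Il1b and Cd83, the dendritic cell marker Cd209a and 4 genes of dividing cells, and C1qa was not among them. It held 25.6 and 25.1 CPM of Csf1r and 96.8 and 84.1 of Cxcr4.

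Cxcl12 in unnamed cluster 13 stood at 152 and 205 CPM (mean 179), against 60.8 and 55.0 CPM in empty droplets. The cluster held 113 and 221 cells with a median of 1146 UMIs, and its leading genes mixed those of leukocytes (Lyz2, Cd74) with mural markers (Rgs5, Acta2, Tagln) and the endothelial marker Flt1. The part of mixed droplets in this level was not tested.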

How the results depend on the processing

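Of 23 calls of a gene as higher in a type, 21 were kept in all 18 tested alternatives, 3 of which were chosen after seeing the data. Csf1 and Il34 in non-myelinating Schwann cells were lost with equal numbers of cells, and Il34 there also with the UMI cutoff over all cells. The number of calls lower rose from 34 to 54 when all other cells formed 1 profile. That profile is mostly SGC, except where SGCs are the type compared, when it holds none. This reference also turned Il34 to -1.17 in SGCs, there against the other types only, and to -0.083 in non-myelinating Schwann cells. It turned Cxcr4 in myelinating Schwann cells to -1.62, Ccr2 in myelinating Schwann cells to -4.28 and in fibroblasts to -3.84, and Csf1r in endothelial cells to -3.43. Cx3cl1 in neurons turned to 0.033 with equal numbers of cells and 0.14 with the UMI cutoff over all cells, and Cxcl12 in macrophages to 0.31 with free RNA subtracted. The causes were not tested. Of the 34 calls lower, 23 were kept with free RNA subtracted and 27 with the UMI cutoff over all cells, where all calls lost were those of neurons. Leaving out replicate 1 or 2, with no test, gave macrophage differences of 4.01 and 3.73 for Cxcr4, 7.65 and 7.96 for Cx3cr1, 11.33 and 12.79 for Ccr2 and 10.17 and 10.69 for Csf1r. The replicate number pairs the types of 1 dissociation. Over all 17770 genes tested, 2 of 28 pairs of types had deviations correlated over 0.1 (median r 0.060). Counting noise of genes with few UMIs lowers such correlations, so they cannot tell how much the pairing matters. With the replicate block 24 pairs were called higher and 35 lower, and Cxcr4 in macrophages was 3.84, Cx3cr1 7.80, Ccr2 11.59 and Csf1r 10.30. The block added the calls of Ccl2 in mural cells (0.82) and, lower, Cx3cr1 in endothelial cells (-0.64) and changed no other. Over all tested alternatives, Cxcr4 in macrophages lay between 1.88 and 4.31. With RLE scaling the median of all genes in macrophages was -0.10, against -0.24 with TMM. With over 500 genes per cell or calling from UMI totals alone, unnamed leukocytes joined the macrophages. Few UMIs limit the levels outside macrophages: in the other 7 named types Csf1r and Ccr2 rest on at most 18 UMIs a sample.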
